A study of Arabidopsis thaliana with 8 samples.

Results

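Genes that Arabidopsis is known to switch on when it meets foreign or reactive chemicals are described here: OPR1 (AT1G76680), CYP81D11 (AT3G28740), CYP81D8 (AT4G37370) and GSTU3 (AT2G29470). They were chosen by gene identifier because their transcripts were higher in root after treatment, so the root values of these 4 of 3691 listed genes are a description and carry no test. All 4 were listed in both tables, and all 4 passed the filter on low values in each.

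The samples were roots and shoots of wild-type Arabidopsis thaliana, ecotype Col-0. Treated plants received 2,5-dimethylpyrazine (2,5-D), a volatile that microbes release, at 100 µM on a paper disc in a divided plate, and control plants received sterilized water on the disc. The labels give a treatment of 24 hours and also 14 days of growth together in the plate, so the length of contact is not settled by them. The groups were root 2,5-D, root water, shoot 2,5-D and shoot water, with 2 RNA sequencing libraries each, and whole organs were sampled, so fewer cells of a type and less RNA per cell cannot be told apart. The labels do not say whether the libraries of a group were grown apart, so a p-value covers only the spread within a pair of libraries, and that spread may be technical.

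Plants handle foreign chemicals in steps. Reductases and cytochrome P450 monooxygenases change a reactive group, glutathione transferases and glycosyltransferases attach a polar molecule, and transporters move the product into the vacuole or out of the cell. OPR1 belongs to the oxophytodienoate reductases, flavin enzymes that reduce reactive carbonyl compounds; the form that serves jasmonate synthesis is OPR3, not OPR1. CYP81D11 and CYP81D8 are cytochrome P450 monooxygenases, of which CYP81D11 is known for its induction by cis-jasmone and by xenobiotics through class II TGA factors. GSTU3 is a tau-class glutathione transferase, a plant class known for conjugating herbicides and other xenobiotics with glutathione.

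The sequences before the gene starts are shown because TGA and WRKY factors are known to act on stress genes. The 4 genes were chosen for higher root values, so their shared rise in root is no sign of shared control. TGA factors bind TGACG and WRKY factors bind TTGAC. Capitals mark these 5 letters on either strand, so TTGAC reads GTCAA where it lies on the other strand. Each run is written 5′ to 3′ on the gene's strand and ends at the base before the annotated start, in RefSeq assembly TAIR10.1. The runs lie at chr1:28776376-28776625 on the plus strand for OPR1, and on the minus strand at chr3:10790554-10790803 for CYP81D11, chr4:17571744-17571815 for CYP81D8 and chr2:12629641-12629890 for GSTU3. These coordinates are those of RefSeq, since the authors' tables hold gene identifiers and no positions. For CYP81D8 the run is limited to the 72 bases that separate it from the neighbouring gene model, AT4G37380.
OPR1: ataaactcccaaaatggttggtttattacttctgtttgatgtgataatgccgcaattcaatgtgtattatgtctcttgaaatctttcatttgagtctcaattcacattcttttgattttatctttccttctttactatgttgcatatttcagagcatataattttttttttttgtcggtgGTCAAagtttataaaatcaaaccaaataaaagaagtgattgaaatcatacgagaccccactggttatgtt
CYP81D11: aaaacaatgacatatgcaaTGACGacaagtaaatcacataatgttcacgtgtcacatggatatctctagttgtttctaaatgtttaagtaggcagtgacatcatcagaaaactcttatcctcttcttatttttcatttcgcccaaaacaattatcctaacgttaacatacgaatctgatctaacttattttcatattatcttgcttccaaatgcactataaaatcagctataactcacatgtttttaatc
CYP81D8: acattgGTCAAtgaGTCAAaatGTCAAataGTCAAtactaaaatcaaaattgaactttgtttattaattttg
GSTU3: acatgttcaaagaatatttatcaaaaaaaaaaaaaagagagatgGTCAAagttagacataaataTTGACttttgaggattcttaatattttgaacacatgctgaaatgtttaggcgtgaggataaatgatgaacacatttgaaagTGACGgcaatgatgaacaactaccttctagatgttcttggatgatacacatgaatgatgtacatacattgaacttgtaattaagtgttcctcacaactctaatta

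Motifs were counted on both strands in windows of 250 bases before to 50 bases after the start. TGACG occurred in 1 copy in CYP81D11, at base -231, and in 1 copy in GSTU3, at -105, and did not occur in OPR1 or CYP81D8, against 23.1% of all 27443 windows that hold it. CYP81D8 held 5 copies of TTGAC, 4 of them spaced within the short run shown (bases -66, -58, -50 and -42) and 1 at -125, inside the neighbouring gene model. At least 5 copies were found in 0.197% of all windows (54 of 27443). That cutoff was taken from CYP81D8 itself, the highest count of the 4 genes, so the share is a description only. TTGAC was present in 1 copy in OPR1 (-70) and 2 copies in GSTU3 (-206 and -186), was not found in CYP81D11, and was present at least once in 50.5% of all windows. The G box CACGTG stood in CYP81D11 (-205) and in CYP81D8 (-193, inside the neighbouring gene model), against 7.68% of windows, and overlapped no copy of the other motifs in these genes. The heat shock core GAANNTTC was in none of the 4 windows and in 11.6% of all. The mitochondrial dysfunction motif of NAC factors matched in 1 place in CYP81D8, at -140 inside the neighbouring model, against 1.42% of all windows. A match describes letters only and does not show binding.

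The deposited values carry no unit in the file headers. They were taken as scaled by depth and by gene length, which the files do not state, and levels of different genes are set side by side on that assumption. Values summed to 252870 to 343912 per root library and 271587 to 308223 per shoot library, and total depth is unknown. Across genes, on the log2(value + 1) scale, libraries of a pair correlated at r = 0.996 for root 2,5-D, 0.988 for root water and 0.995 for shoot 2,5-D, but at 0.946 for shoot water. The shoot water pair differed by over 2-fold in 18.8% of tested genes, against 0.977% in the shoot 2,5-D pair, 0.344% in the root 2,5-D pair and 2.44% in the root water pair. Green-tissue markers (6 of 8 listed) summed to 7619 to 8952 in shoot 2,5-D and 13080 to 13470 in shoot water, against 179.9 to 206 in root 2,5-D and 196 to 257 in root water. Casparian strip markers (3 of 7 root markers listed) summed to 57.8 to 72.9 in root 2,5-D and 121.5 to 128 in root water, against 1.87 to 2.34 in shoot 2,5-D, where CASP2 was listed at 0, and 2.73 to 3.95 in shoot water. These sums separate root from shoot as labelled. Both marker sums were lower with 2,5-D in their own organ, and their part in the results below was not tested. Of the 3691 listed genes, 2 had overlapping groups in both tissues, so the tables are treated as lists picked on these libraries.

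OPR1 was the most abundant of the 4 genes in every library. In root it stood at 479.95 and 476.46 in the 2,5-D libraries and at 137.22 and 123.83 in the water libraries. The treated pair agreed closely and lay well above the water pair, which was also tight. The means were 478 ± 2.47 in 2,5-D and 130.5 ± 9.47 in water (SD, n = 2 each), a 3.66-fold difference of means. On the log2(value + 1) scale the limma difference was 1.87 (SE 0.16). In shoot OPR1 stood at 396.71 and 354.37 in the 2,5-D libraries and at 183.46 in water library 1 and 310.85 in water library 2. Both treated shoots were above both water shoots, yet the water libraries lay further from each other than water library 2 lay from the treated pair. The shoot difference was 0.65 (SE 0.31, 95% interval -0.24 to 1.54, limma adjusted p = 0.1785), and both treated libraries showed its direction. Against water library 1 alone it was 1.03 and against water library 2 alone 0.27.

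CYP81D11 was the least abundant of the 4. Root values were 14.90 and 10.73 in 2,5-D and 2.14 and 2.49 in water. Every treated root was above both water roots, although the treated pair was 1.39-fold apart, the widest treated pair of the 4 genes. The means were 12.8 ± 2.95 in 2,5-D and 2.32 ± 0.247 in water (SD, n = 2 each), a 5.54-fold difference, with a log2 difference of 2.04 (SE 0.19). By the estimated value of 1 read, the water values rest on about 48 and 52 reads. Shoot values were 5.77 and 5.31 in 2,5-D and 6.64 and 2.38 in water, so the treated pair fell between the 2 water libraries. These were 2.79-fold apart. The shoot log2 difference was 0.36 (SE 0.44, 95% interval -0.89 to 1.62, limma adjusted p = 0.530), or -0.23 against water library 1 and 0.95 against water library 2.

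CYP81D8 had root values of 34.70 and 30.90 in 2,5-D and 9.25 and 9.78 in water. The 2 pairs were each tight and far apart, with means of 32.8 ± 2.69 in 2,5-D and 9.52 ± 0.375 in water (SD, n = 2 each), 3.45-fold apart. The log2 difference of 1.68 (SE 0.16) was the smallest of the 4 in root. In shoot CYP81D8 stood at 69.67 and 73.60 in 2,5-D and at 61.65 and 26.87 in water. Both treated shoots were above both water shoots, but water library 1 was near the treated level and water library 2 was far below it. The shoot difference was 0.80 (SE 0.45, 95% interval -0.47 to 2.07, limma adjusted p = 0.2256), and amounted to 0.21 against water library 1 and 1.38 against water library 2.

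GSTU3 stood at 20.62 and 20.22 in root 2,5-D and at 4.34 and 3.53 in root water. The treated values were nearly equal and lay above both water values. The means were 20.4 ± 0.283 in 2,5-D and 3.94 ± 0.573 in water (SD, n = 2 each), 5.19-fold apart, with a log2 difference of 2.12 (SE 0.16). The water values rest on about 59 and 45 reads, by the estimated value of 1 read. Which of GSTU3 and CYP81D11 differed more in root depended on the scale, with 2.35 for GSTU3 and 2.40 for CYP81D11 at a pseudocount of 0.1. In shoot the values were 18.62 and 20.36 in 2,5-D and 35.66 and 14.13 in water. The treated pair again fell inside the water pair, which was 2.52-fold apart. The shoot difference was -0.20 (SE 0.48, 95% interval -1.56 to 1.16, limma adjusted p = 0.751). It was -0.84 against water library 1 and 0.44 against water library 2, so the sign depended on which water library was used.

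**Figure D1:**
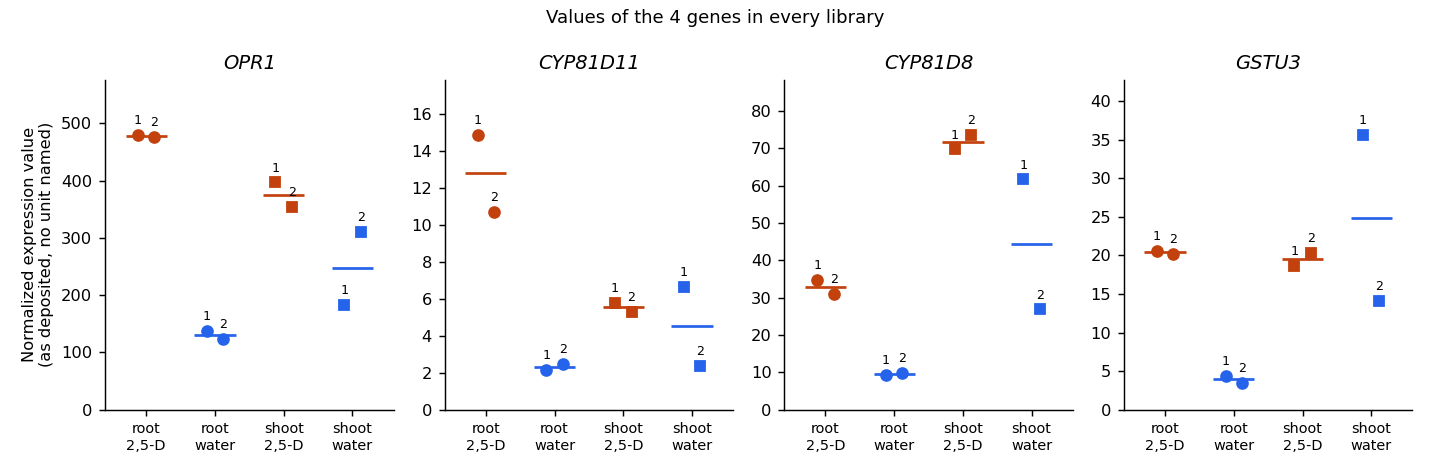
Deposited normalized expression value (vertical axis, linear, no unit named) of OPR1, CYP81D11, CYP81D8 and GSTU3 in each library, with circles for root, squares for shoot, numbers for the library and a line at the group mean. The root 2,5-D points stand above the root water points in all 4 panels, whereas the shoot water points of CYP81D11 and GSTU3 lie on both sides of the shoot 2,5-D points.

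In root all 4 genes were called higher by limma (adjusted p under 0.05 over all 3487 tested genes), as were 39.0% of the tested genes, while 22.5% were called lower. In all 4, both treated roots stood above both water roots, as in 51.3% of the listed genes. Nothing is read from these counts, since root values chose the genes. By size of the root difference on the log2(value + 1) scale, GSTU3 ranked 35, CYP81D11 42, OPR1 66 and CYP81D8 107 of 3487. The median difference was 1.96 over the 4 genes and 0.26 over all tested genes. In shoot none of the 4 was called, and limma called 0 of 3376 tested genes (0%), while 1664 had an unadjusted p under 0.05. None of the 4 was among those. Their shoot ranks were 851 for CYP81D8, 1181 for OPR1, 1693 for CYP81D11 and 2420 for GSTU3 of 3376, and their median was 0.51, against 0.37 over all tested genes. Both treated shoots stood above both water shoots in 2 of the 4 genes (OPR1 and CYP81D8), as in 49.7% of the listed genes, and the groups overlapped in the other 2, as in 24.3%. Scaling every library to the same median moved the differences by a median over genes of -0.071 in root and -0.386 in shoot on the log2 scale. After that scaling, the shoot differences were 0.24 for OPR1, 0.03 for CYP81D11, 0.40 for CYP81D8 and -0.59 for GSTU3.

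The difference between the organs was widest for GSTU3, where the root difference exceeded the shoot difference by 2.32 (SE 0.51) on the log2 scale. It was 1.68 (SE 0.48) for CYP81D11, 1.22 (SE 0.35) for OPR1 and 0.89 (SE 0.47) for CYP81D8. No p is given for these, because root values chose the genes. With either shoot water library left out, the smallest excess of root over shoot was that of CYP81D8 without water library 1, at 0.30. The sign of the excess is a description only, since a choice on high root values favours it. In the plot of change by water library, the root points of each gene nearly coincide and the shoot points spread.

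**Figure D2:**
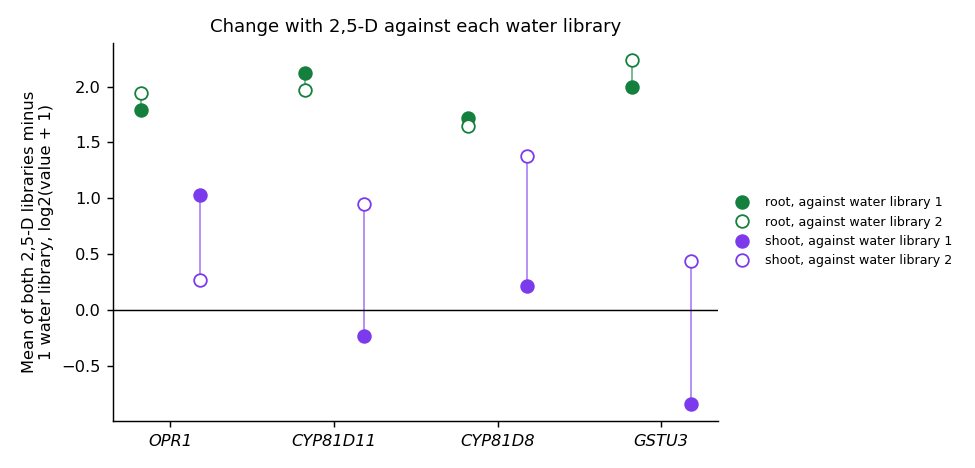
Mean of both 2,5-D libraries minus 1 water library, on the log2(value + 1) scale (vertical axis), for each of the 4 genes, with root in green, shoot in purple, filled points for water library 1 and open points for water library 2. Root differences lie between 1.65 and 2.24, and shoot differences between -0.84 and 1.38, with those of CYP81D11 and GSTU3 on both sides of 0.

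The 2 shoot water libraries differed in a direction that was not shared by all 4 genes. CYP81D11, CYP81D8 and GSTU3 were each over 2-fold higher in water library 1 than in water library 2, and 3.41% of tested shoot genes were. OPR1 went the other way, with water library 1 at 0.590 times water library 2. Among 44 further tested genes of the detoxification lists, water library 1 was above water library 2 in 35, by over 2-fold in 3 of them. These 3 were the glycosyltransferase genes UGT74E2 and UGT75B1 and the transcription factor gene NAC13, named after their values were seen. The reverse held for 9, by over 2-fold in 1, the glutaredoxin gene GRX480, at 73.2 in water library 1 and 376.7 in water library 2. Over all tested shoot genes water library 1 was above in 1832 and below in 1541, but differences over 2-fold ran mostly the other way, with water library 1 above in 115 and below in 521 (15.4%). With water library 1 left out, the shoot differences were 1.38 for CYP81D8, 0.95 for CYP81D11, 0.44 for GSTU3 and 0.27 for OPR1. With water library 2 left out, they were 1.03 for OPR1, 0.21 for CYP81D8, -0.23 for CYP81D11 and -0.84 for GSTU3. In each such fit the spread came from the 2,5-D pair alone, and the remaining water library was assumed to vary like it. These differences therefore describe the choice of library.

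The order of levels was OPR1, CYP81D8, GSTU3 and CYP81D11 in all 4 groups. Neighbours in that order did not overlap in root 2,5-D, root water or shoot 2,5-D, while in shoot water CYP81D8 (61.65 and 26.87) and GSTU3 (35.66 and 14.13) overlapped. The root and shoot tables may have been normalized separately, so levels across them are given without a test. In water plants OPR1 was at 124 to 137 in root and 183 to 311 in shoot. CYP81D8 was at 9.25 to 9.78 in root and 26.9 to 61.7 in shoot, and GSTU3 at 3.53 to 4.34 in root and 14.1 to 35.7 in shoot. The deposited values of these 3 genes did not overlap between the organs, whereas those of CYP81D11 did (2.14 to 2.49 in root and 2.38 to 6.64 in shoot).

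Several of these genes sit in runs of related genes. The choice of the 4 named none of these relatives, but they come from the same libraries and the same picked list. Their calls are therefore not independent of that picking. GSTU3 is the fifth gene in a run of 7 tau-class glutathione transferases on chromosome 2, and the whole run was listed. The 6 others were called higher in root by limma, with log2 differences of 1.08 to 2.47, beside 39.0% of all tested genes. All 6 were also called under every alternative tried. GSTU5, the highest, had 498 and 479.7 in root 2,5-D and 101.5 and 75.3 in root water (log2 difference 2.47, SE 0.18, adjusted p = 3.34e-05). GSTU2 had 54.3 and 47.4 in root 2,5-D and 8.73 and 13.98 in root water (2.1, SE 0.21, adjusted p = 1.06e-04). GSTU4 (1.76), GSTU7 (1.68) and GSTU6 (1.67) lay between, and GSTU1 was lowest (1.08, SE 0.17). The level of GSTU3 in treated root was below that of each of the other 6. In shoot the 6 lay between -0.37 and 0.63 and none was called, though calls appeared with either water library left out. GSTU4 was the only one of the 6 whose shoot groups did not overlap, at 69.2 and 90.7 in 2,5-D and 63.2 and 41.1 in water. The coding sequence of GSTU3 was 62.5% to 81.9% identical to those of its neighbours, with at most 33 identical bases in a row, in GSTU4.

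OPR1 lies next to OPR2 (AT1G76690), its close relative. OPR2 had 56.4 and 52.67 in root 2,5-D and 41.09 and 35.89 in root water, a log2 difference of 0.49 (SE 0.16, adjusted p = 0.0241). That rise was far smaller than the 1.87 of OPR1, and the call was lost with equal medians and without either 2,5-D library. In shoot OPR2 stood at 14.93 and 14.57 in 2,5-D and 15.99 and 13.56 in water, a difference of 0.00 (SE 0.14). The coding sequences of the pair are 91.2% identical, with a longest identical run of 114 bases, and their gene models overlap by 216 bases on the same strand. Reads may therefore have been shared between them in the counting, which makes the value of OPR2 the more uncertain. CYP81D11 overlaps AT3G28730 by 32 bases on the opposite strand, and the sources used here do not say whether the counting used strand.

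CYP81D8 belongs to a run of 9 CYP81 genes on chromosome 4, of which 4 were listed. The 3 others differed less in root. CYP81F3 was at 54.9 and 68.6 in 2,5-D and 48.9 and 28.2 in water (log2 difference 0.71, SE 0.25, adjusted p = 0.0307). CYP91A2, also named CYP81F1, differed by 0.44 (adjusted p = 0.0417), and CYP81F4, an enzyme of indole glucosinolate modification, by 0.26 (adjusted p = 0.1586). Of the 4 tested CYP81 genes other than the pair described here, 2 were called higher in root and 0 lower. Of all tested root genes, 39.0% were called higher and 22.5% lower. With equal medians 0 of the 4 were called, and in 1 fit over both tissues 0 of 3 tested. These calls also changed when any 1 root library was left out. In shoot CYP81F4 and CYP91A2 differed by 0.12 and -0.12, and CYP81F3 was below the filter at 1.35 and 1.02 in 2,5-D and 0.51 and 0.50 in water. CYP81D11, alone on chromosome 3 with no family neighbour, is 69.6% identical to CYP81D8 in coding sequence, with at most 18 identical bases in a row.

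**Figure D3:**
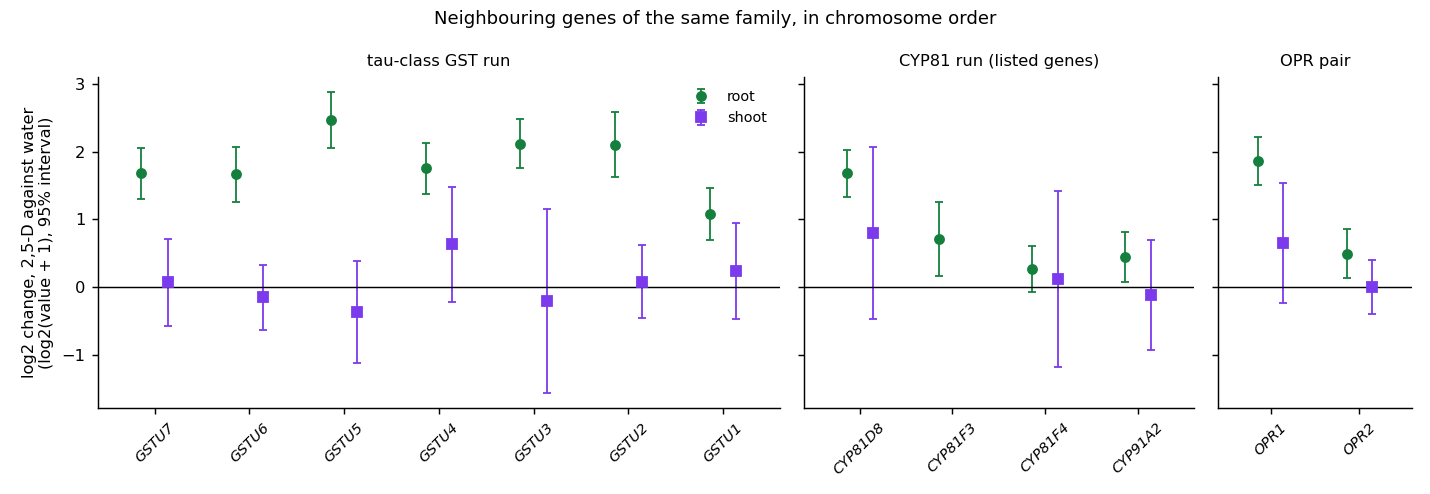
Log2 difference between 2,5-D and water, log2(value + 1) scale, with 95% intervals from limma, for the listed genes of the 3 family runs in chromosome order, root as green circles and shoot as purple squares. All 7 genes of the glutathione transferase run lie at 1.08 or above in root, while the relatives of CYP81D8 and OPR1 lie at 0.26 to 0.71. CYP81F3 has no shoot point, as it was below the filter.

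Genes of the same detoxification steps were counted from lists that were chosen with earlier results of these data known. Listed were 4 of 15 further CYP81 genes, 18 of 27 further tau-class transferases and 10 of 28 other enzymes. So were 4 of 11 exporters, 6 of 14 regulators and 3 of 6 mitochondrial markers, and only listed genes enter the counts. Beside GSTU3, 18 tau-class glutathione transferases were tested in root, and 12 rose, 1 fell and 5 did not pass (9 rose without either 2,5-D library), beside 39.0% of all tested root genes called higher and 22.5% lower. Their median log2 difference was 0.82, against 0.26 over all tested genes, and GSTU23 was the gene that fell (-1.08, adjusted p = 7.90e-04). GSTU27 was next lowest (-0.38, adjusted p = 0.0669). Of 9 tested enzymes of other detoxification families, 7 rose and 0 fell, with a median of 0.71, beside the same 39.0% and 22.5% of all tested genes. UGT73B2, a flavonol glycosyltransferase, had 55.1 and 45.6 in root 2,5-D and 9.11 and 11.04 in root water (2.21, SE 0.17, adjusted p = 3.73e-05). DOGT1, which glycosylates the fungal toxin deoxynivalenol, rose by 1.96. ALDH7B4, an aldehyde dehydrogenase, rose by 0.41, and the lowest, AT1G60730, stood at 0.30 (adjusted p = 0.1387). With equal medians, which called 1990 root genes in either direction, 6 of these 9 enzymes rose. In 1 fit over both organs, which called 1170 root genes, 5 rose. Fewer were called without either 2,5-D library, and more without either water library. In the fits without a water library a further gene, AT2G36780, passed the filter through its treated values. It had 1.51 and 1.34 in root 2,5-D and 0.44 and 0.51 in root water. CYP81D1, the remaining tested CYP81 gene, stood at 0.35 in root and 0.49 in shoot and was not called in either.

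The shares of all tested root genes, 39.0% higher and 22.5% lower, stand beside each count that follows. Of 4 tested exporters 1 rose and 1 fell in root, with a median of -0.13. DTX1, a multidrug carrier of the plasma membrane, stood at 0.49 and ABCC10 at -0.53. Neither call held without either 2,5-D library, and that of DTX1 was also lost with a pseudocount of 0.1, with equal medians, without water library 1 and in the fit over both tissues. ABCC1 (0.09) and ABCC3 (-0.35), vacuolar pumps of glutathione conjugates, were not called. Among 6 tested regulators 4 rose and 1 fell, with a median of 1.23. In 1 fit over both organs, which called 1170 root genes in either direction, 3 rose and 1 fell. The stress-responsive NAC factor genes NAC032 (1.60), NAC102 (1.30) and ATAF1 (1.16) rose, as did GRX480 (1.43), a glutaredoxin known to bind TGA factors, with 1180 and 1140 in 2,5-D and 439.9 and 418.7 in water. TGA1, a class I TGA factor gene, fell by 0.76, a call lost without either 2,5-D library, and NAC13 stood at 0.39 (adjusted p = 0.0723). The 3 listed of 6 mitochondrial stress markers rose, namely AT2G41730 (1.37), the alternative oxidase gene AOX1A (1.18) and AT5G09570 (0.60). Not all of them were called without either 2,5-D library. In these fits without a 2,5-D library, the remaining treated library was assumed to vary like the water pair.

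In shoot limma called 0 genes in each of these lists, with the organs fitted alone, all libraries in and no scaling to equal medians. The medians were 0.07 for the other tau-class transferases, 0.12 for the other CYP81 genes, 0.39 for the other detoxification enzymes, 0.86 for the exporters, 0.48 for the regulators and 0.25 for the mitochondrial markers, against 0.37 over all tested genes. GSTU9 was highest among the transferases (1.22, adjusted p = 0.0638), followed by GSTU24 (0.64). GSTU20 was lowest, at 188 and 240.9 in 2,5-D and 610.1 and 511 in water (-1.39, SE 0.21, adjusted p = 0.0524). GSTU23 was next lowest (-0.63). All 4 exporters had both treated shoots above both water shoots, as had 49.7% of the listed genes, with differences of 0.97 for ABCC3, 0.93 for DTX1, 0.79 for ABCC10 and 0.73 for ABCC1 (adjusted p = 0.0524 to 0.0764). GSTL1 (0.93) and UGT74E2 (0.71) led the other enzymes, and AER (-0.29) and UGT75B1 (-0.35) were lowest. Of the regulators, GRX480 (1.58, SE 0.86) and ATAF1 (0.62) were highest, NAC102 (0.21) and TGA1 (-0.11) were lowest, and NAC032 stood at 0.59. The mitochondrial markers stood at 0.46 for AOX1A, 0.25 for AT5G09570 and 0.21 for AT2G41730. The calls depended on the water libraries and on the fit. In 1 fit over both organs, 4 exporters, 3 transferases, 2 regulators and 1 other enzyme were called higher and 3 transferases lower. That fit called 1523 of 3215 genes in shoot, in either direction. With equal medians 2 transferases were called lower, beside 503 genes called in either direction. Calls in several of these lists also changed with either water library left out, in fits where only 1 water library gave the control level.

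**Figure D4:**
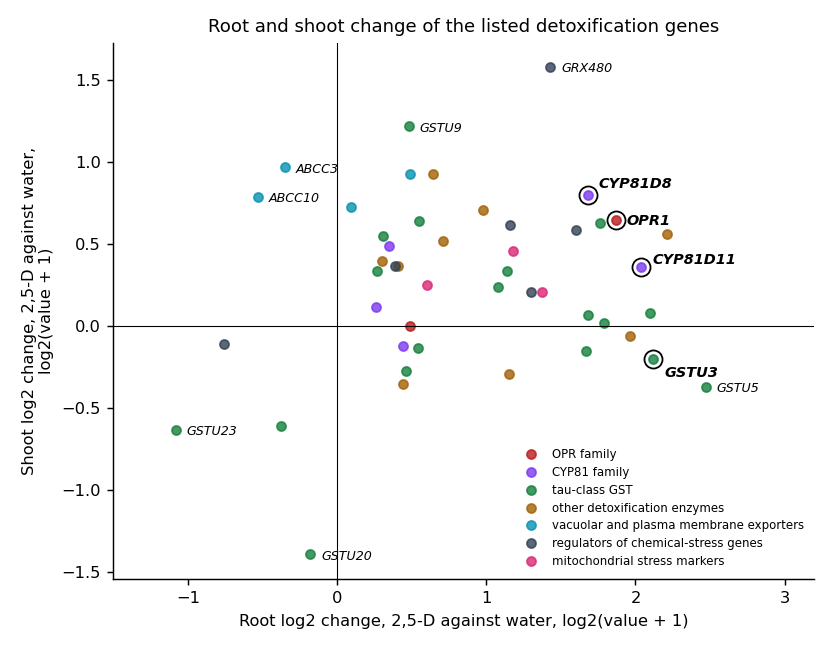
Shoot log2 difference (vertical axis) against root log2 difference (horizontal axis), 2,5-D against water on the log2(value + 1) scale, for genes of the lists tested in both tissues, coloured by list, with the 4 genes described here ringed. The ringed genes lie at 1.68 to 2.12 in root and -0.20 to 0.80 in shoot, and GSTU5 lies furthest to the right.

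The listed genes most like each of the 4 over the 8 libraries were found among 3215 genes tested in both tissues. The measure was the root-mean-square difference of log2(value + 1), less each gene's mean within its table, and smaller means more alike. For OPR1 the closest was RAB18 (0.08), a dehydrin gene, at 3.24 and 2.75 in root 2,5-D, 0.22 and 0.08 in root water, 9.46 and 8.76 in shoot 2,5-D and 3.74 and 6.22 in shoot water. RAB18 passed the root filter through its treated values, and as its root water values are near 0, its nearness to OPR1 is tied to the pseudocount of 1. The lectin receptor kinase gene AT4G28350 (0.11) and AT4G21920 (0.13) came next. In these genes, as in OPR1, water library 1 was the lower of the shoot water pair. For CYP81D11 the closest were AT1G68620 (0.17), AT1G72060 (0.19) and ERF71 (0.19), a factor gene of the hypoxia response also named HRE2. ERF71 was closest to CYP81D8 as well (0.12), at 489 and 397.7 in root 2,5-D, 111.5 and 124 in root water, 44.2 and 41.7 in shoot 2,5-D and 32.7 and 17.2 in shoot water. AT5G05600 and GSTU4 followed for CYP81D8, both at 0.18. For GSTU3 the closest were DOGT1 (0.17), AT2G15960 (0.17) and AT3G27880 (0.22). DOGT1 had 7.13 and 6.52 in root 2,5-D, 0.95 and 1.06 in root water, 56.5 and 57.4 in shoot 2,5-D and 78.5 and 45.3 in shoot water, so the pseudocount bears on it as well. Among the 4 genes themselves, CYP81D11 differed by 0.22 from CYP81D8 and by 0.25 from GSTU3, and CYP81D8 by 0.40 from GSTU3. OPR1 stood apart from the other 3 by 0.50 to 0.60, and the median over all genes was 0.69 to 0.91. All of these likenesses share the same 8 libraries, and the difference between the shoot water libraries enters each of them.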

How the data were processed

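RNA of roots and shoots was sequenced in 8 libraries, 2 per group. The aligner was HISAT2 2.0.4, per the submitters' processing notes. Neither the strand setting, the quantifier nor the build is given in the sources used here. Each organ has 1 table, deposited by the authors, that holds a normalized signal whose unit no header names. Multiplied by exonic length less 250 bases, 57.5% to 68.3% of low values came within 0.1 of whole multiples of a step fitted to the same values, a share whose chance level was not computed. The signal was taken, as an assumption, to be scaled by both gene length and depth (the unit may be FPKM or TPM). For a gene of 1 kb effective length, 1 read was estimated to be worth 0.0572 to 0.0684, with libraries at 83.6% to 100% of the deepest. As too few values came out whole, no count test was run.

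The 4 genes and the lists were chosen with earlier results of these data known. Both shoot 2,5-D columns carry the header of replicate 1 and are numbered here by column order, as names only. Each organ was fitted alone with limma 3.58.1 (R 4.3.3, mean-variance trend) on log2(value + 1), over genes with a mean of at least 1, and p-values were adjusted over all of these by Benjamini-Hochberg. The fit was tested on simulated data. Differences on this scale understate the change of low values. A gene was called at an adjusted p under 0.05. Named beside the 4 genes are their family neighbours, the 2 highest and 2 lowest genes of each list and organ, and the 3 genes most alike to each. A few further genes of the lists were named after their values were seen. Gene symbols, starts, coding sequences and promoters come from RefSeq TAIR10.1, to which all 3691 identifiers matched. Coding identity was computed with Biopython 1.88. Alternatives were a pseudocount of 0.1, no filter, equal medians, no trend, a replicate block, each library left out, and 1 fit over both organs.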

Additional observations from a re-analysis of the deposited data

Results flagged for a closer look

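In 3 of 47 genes of the detoxification lists tested in both organs (6.38%, the 4 genes described above included), both 2,5-D libraries lay on one side of both water libraries in root and on the opposite side in shoot. Such opposite separation was seen in 374 of 3215 genes tested in both organs (11.6%). The difference between the organs was not tested. AER, an alkenal reductase gene, had a log2 difference of 1.15 in root and -0.29 in shoot, where the separation was narrow, with 61.30 and 59.33 in 2,5-D and 89.08 and 61.53 in water. ABCC3 stood at -0.35 in root and 0.97 in shoot, and ABCC10 at -0.53 in root and 0.79 in shoot. None of the 4 genes described above showed such a reversal.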

How the results depend on the processing

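The root differences of the 4 genes, which chose them and so carry no test, were 1.79 to 1.94 for OPR1, 1.83 to 2.26 for CYP81D11, 1.60 to 1.76 for CYP81D8 and 2.00 to 2.24 for GSTU3 when each library was left out in turn. Leaving out each shoot library gave 0.27 to 1.03 for OPR1, -0.23 to 0.95 for CYP81D11, 0.21 to 1.38 for CYP81D8 and -0.84 to 0.44 for GSTU3. The root minus shoot difference then ranged over 0.84 to 1.60 for OPR1, 1.09 to 2.27 for CYP81D11, 0.30 to 1.47 for CYP81D8 and 1.69 to 2.96 for GSTU3. None of the 4 was called in shoot with all libraries in, under any alternative.

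The count of called genes was 2143 in root, 1093 to 2512 with a library left out (1093 and 1313 without 2,5-D libraries 1 and 2) and 1170 in 1 fit over both organs. In shoot it was 0, and 0 to 2480 with a library left out (2121 without water library 1 and 2480 without water library 2), 503 with equal medians and 1523 in 1 fit over both organs, where the spread is shared with root. The causes were not tested. A replicate block could be fitted in root alone, as both shoot 2,5-D columns share 1 number, and gave 2185 called genes. Deviations of same-numbered root libraries from their group means were nearly uncorrelated (r = -0.049 over 3487 genes). This value cannot tell whether same-numbered libraries were grown or handled together. Total depth is unknown, and the read numbers given for CYP81D11 and GSTU3 rest on the fitted value of 1 read.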
